A study of Mus musculus with 6 samples.

Results

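Genes of the p53 response were followed through 2 separately immortalized lines of mouse embryonic fibroblasts (MEFs, connective tissue cells grown from embryos), with and without the histone acetyltransferase GCN5. The gene group was given as a list of 30 symbols, p53 itself (Trp53) and 29 genes known as its targets or regulators, and every probe set annotated to 1 of these symbols was taken. A probe set is a group of short array probes for 1 transcript. The list matched 51 probe sets of 28 genes, out of 45037 probe sets and 18193 named genes on the array. Trp53 and Bax, a pore-forming death protein, matched no probe set in the annotation used here and are not analysed. A level filter, a mean log2 signal of at least 6.80 over the 6 arrays, was passed by 44 of the 51 probe sets and by at least 1 probe set of each of the 28 genes. The 7 probe sets below it were each a dimmer, further probe set of a gene that was tested.

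All 6 arrays were of total RNA from PCAF-/- cells, so controls and GCN5-deficient cells alike lacked PCAF (gene Kat2b). The sample labels put 3 arrays in the genotype PCAF-/-;GCN5+/- and 3 in PCAF-/-;GCN5-/-, written here as GCN5+/- and GCN5-/-. In each genotype, arrays A1 and A2 held a pair of RNAs of line A, and array B held 1 RNA of line B, an independent immortalization. The study design describes a conditional GCN5 allele (gene Kat2a) and retroviruses that carried Cre recombinase or vector alone. No label names a virus. In the design text the cells of both infections are written as GCN5+/-, which does not match the labelled genotypes. Groups follow the labels. GCN5-/- was read as Cre and GCN5+/- as vector, and under that reading the virus changed together with the genotype. Cells were selected with puromycin and received no other treatment. Each line is a single immortalization, and no source used here says how it was obtained or whether p53 was intact. A p-value between the lines therefore measures the spread between RNAs and arrays, not between immortalizations. In bulk RNA, fewer cells that express a gene and less RNA per cell cannot be told apart.

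The p53 protein is a transcription factor that is stabilized by DNA damage and oncogenic stress and switches on genes for growth arrest, DNA repair, cell death and metabolic adjustment. One of its targets is Mdm2, a ubiquitin ligase that degrades p53 and closes a feedback loop. In cultured MEFs the pathway acts as a barrier to immortalization, which is often passed by loss of p53 or of its activator Arf, a product of Cdkn2a. PCAF, and by similarity GCN5, are known to acetylate p53 as well as histones. The study compared cells with and without GCN5, and the pair of lines also allows the state of the pathway in 2 immortalizations to be compared.

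Array medians lay between 7.4 and 7.45 (log2), and the SD of the log2 difference between duplicate RNAs was 0.223 in GCN5+/- and 0.214 in GCN5-/- cells. Kat2a probe set 1422972_s_at read 9.31 (A1), 10.07 (A2) and 11.51 (B) in the GCN5+/- group against 7.97 (A1), 7.85 (A2) and 7.75 (B) in GCN5-/-, and 1422971_at also fell (limma adjusted p = 0.00864 and 0.0157). The brightest, 1426783_at, was not called over both lines (limma adjusted p = 0.575): it was higher in GCN5-/- by 0.56 and 0.38 in the line A pairs (within line A 0.47 ± 0.09, limma adjusted p = 0.0232) and differed by -0.41 in pair B. Whether each lies in the deleted part was not analysed here. All 3 Kat2b probe sets lay below the level filter in mean signal. The brightest, 1434037_s_at, read 6.74 to 7.3 in the line A arrays and 6.21 and 6.23 in line B, without overlap (-0.69). All 12 fibroblast markers passed the filter, with a mean log2 signal per array of 12.75 to 12.92 in GCN5+/- and 12.50 to 12.63 in GCN5-/- arrays. Of the 12, 6 fell in GCN5-/- cells, and 5 fell and 3 rose in line B. Thy1 passed the filter through line B only. It read 6.02 to 6.21 in the line A arrays, under the filter level, and 9.54 and 8.6 in line B (2.95 ± 0.19, log2, SE). Pdgfra was lower in line B (-1.91 ± 0.14). Leukocyte and macrophage markers passed in 4 of 7 cases (array means 6.74 to 6.95 in GCN5+/- and 6.93 to 7.22 in GCN5-/-), epithelial markers in 3 of 5, endothelial markers in 1 of 4, neural markers in 3 of 4 and skeletal muscle markers in 0 of 3. Below the filter were Ptprc, Adgre1 and Itgam (leukocyte and macrophage), Cdh1 and Krt18 (epithelial), Pecam1, Cdh5 and Tek (endothelial), all of the muscle markers, and Sox2 (neural). Of those above it, Cd53 was higher in GCN5-/- cells (0.85 ± 0.09, log2, SE) and lower in line B (-1.18 ± 0.10), Csf1r was lower in line B (-1.35 ± 0.13) and Cd68 higher (0.91 ± 0.11). Among neural markers Tubb3 was lower (-1.27 ± 0.20) and Nes higher (0.94 ± 0.09) in line B. The part of these marker changes in the results below was not tested.

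Between the lines, the death effectors Perp, Trp53inp1, Fas, Phlda3 and Aen were lower in line B, and other death genes of the group were not called at their brightest probe sets. Perp fell 7.82-fold, Trp53inp1 5.14-fold, Fas 3.27-fold and Phlda3 1.93-fold, while Ddit4 was 2.10-fold and Plk2 1.59-fold higher. Both line B signals of Perp and the GCN5+/- B signal of Trp53inp1 lie under the level of the filter, so the size of these folds is uncertain. A probe set was called at a limma adjusted p under 0.05. In all, 18 of 44 probe sets were called between the lines, 14 lower and 4 higher in line B, for 14 of the 28 genes. Over all 27022 probe sets tested, 23.1% were called between the lines, with 11.6% higher and 11.5% lower. The median log2 difference of the 44 was -0.01 and that of all tested probe sets 0.016, with members on both sides. By the brightest probe set of each gene, 9 genes fell, 3 rose and 16 were not called. The heat map of the 28 genes shows the line contrast concentrated in a few rows.

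**Figure D1:**
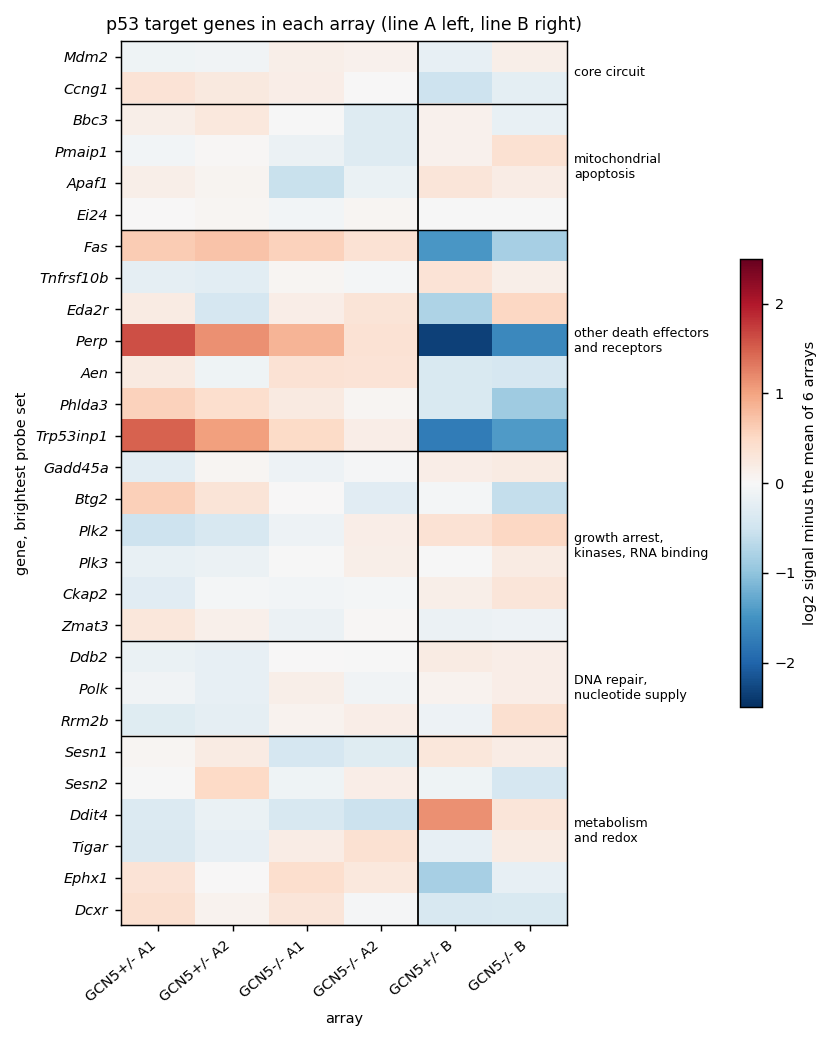
Log2 signal of 28 p53 pathway genes (rows, brightest probe set, grouped by role) in 6 arrays (columns), as the difference from the gene's mean over the arrays; the black vertical line divides line A from line B. Perp, Trp53inp1 and Fas lie above their mean (red) in the 4 line A arrays, least in GCN5-/- A2, where the colour is pale. They lie below it (blue) in both line B arrays. Mdm2 differs little between the lines (-0.05).

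The core circuit was represented by Mdm2 and Ccng1. Mdm2 had a log2 signal of 11.47 and 11.50 in GCN5+/- A1 and A2, 11.37 in GCN5+/- B, 11.72 and 11.69 in GCN5-/- A1 and A2, and 11.72 in GCN5-/- B at probe set 1423605_a_at. The lines overlapped, with a difference (line B minus line A throughout) of -0.05 ± 0.07 (log2, SE; limma adjusted p = 0.679). Its second probe set, 1427718_a_at, gave -0.06 ± 0.08. Ccng1, cyclin G1, which directs a phosphatase to Mdm2, was lower in line B at all 3 probe sets. Its brightest, 1420827_a_at, read 11.95, 11.87, 11.79 and 11.63 in line A (GCN5+/- A1 and A2, then GCN5-/- A1 and A2) against 11.09 and 11.37 in line B (GCN5+/- and GCN5-/-), with no overlap. The difference was -0.58 ± 0.11 (SE; limma adjusted p = 0.00841), and -0.63 ± 0.09 and -0.64 ± 0.10 at the other probe sets. Without GCN5+/- B the call at 1420827_a_at was lost, at -0.34 (adjusted p = 0.0818), while the other probe sets kept theirs.

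Promoter windows of the members, from RefSeq (GRCm38.p6, 250 bases before to 50 after each start), were searched for the p53 response element, since several members moved together between the lines. The element is a pair of half-sites of 10 bases, each with purines, a C, 2 A or T bases, a G and pyrimidines in that order, with a spacer of up to 13 bases and at most 2 mismatches in all outside the C and G. It reads alike on both strands. Windows were found for 23 of the 30 genes. None was found for Perp and Trp53inp1, which had the largest line differences, or for Rrm2b, Ddb2, Pmaip1, Tnfrsf10b and Zmat3. Of the 23 genes, 5 (21.7%) held such an element, against 1272 of 27025 genes on the whole table (4.71%). The members were listed as known targets or regulators of p53, so an excess of the element was foreseeable and tests nothing about these arrays. Of single windows, 5 of 28 held one, against 4.09% of 32851. The 4 that were also measured here are shown with up to 40 bases on each side, 5′ to 3′ on the gene's strand, with the half-sites in capitals.
Ccng1: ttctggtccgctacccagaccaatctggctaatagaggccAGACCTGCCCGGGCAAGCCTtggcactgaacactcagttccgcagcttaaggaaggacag
Ckap2: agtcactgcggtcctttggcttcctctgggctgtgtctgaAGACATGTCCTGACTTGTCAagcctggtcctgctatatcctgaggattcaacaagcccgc
Gadd45a: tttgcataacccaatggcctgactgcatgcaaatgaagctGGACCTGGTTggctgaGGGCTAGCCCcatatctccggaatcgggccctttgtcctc
Sesn1: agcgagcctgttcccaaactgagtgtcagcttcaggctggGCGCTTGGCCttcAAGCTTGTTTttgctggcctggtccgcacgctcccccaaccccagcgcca

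The Ccng1 stretch is at chr11:40755422-40755521 (minus strand) and its element, with 1 mismatch and no spacer, spans -195 to -176 relative to the start. Ckap2 is at chr8:22185963-22186062 (minus strand), with 2 mismatches and the element from -203 to -184. Gadd45a is at chr6:67037408-67037503 (minus strand), with a spacer of 6 bases and the element from -56 to -31. Sesn1 is at chr10:41887213-41887315 (plus strand, the second of its 2 windows), with a spacer of 3 bases and the element from -186 to -164. These 4 genes did not move one way between the lines: Ccng1 fell, Ckap2 rose, and Gadd45a (0.27 ± 0.12) and Sesn1 (0.36 ± 0.12) were not called. The windows of Fas, Phlda3, Ddit4, Plk2, Ephx1, Aen, Btg2, Dcxr, Sesn2 and Apaf1 held no such element, which says only that these letters are not within these bases.

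Perp, a tetraspan membrane protein of cell contacts that takes part in p53-dependent death, showed the largest line difference of the 28 genes. Its log2 signal was 9.72 and 9.25 in GCN5+/- A1 and A2 and 8.95 and 8.46 in GCN5-/- A1 and A2, against 5.77 in GCN5+/- B and 6.49 in GCN5-/- B. Every line A array was above both line B arrays, and Perp passed the level filter through line A. The difference was -2.97 ± 0.32 (SE; limma adjusted p = 0.000457), -3.72 within GCN5+/- and -2.22 within GCN5-/- arrays. Trp53inp1, a stress-induced nuclear protein that promotes p53 activity and autophagy, read 9.95 and 9.51 in GCN5+/- A1 and A2, 8.96 and 8.64 in GCN5-/- A1 and A2, and 6.74 and 7.07 in GCN5+/- B and GCN5-/- B. Again the lines did not overlap (-2.36 ± 0.27; limma adjusted p = 0.000616). Its dimmer probe set, 1416927_at, stayed under the filter in mean signal and was not called with no filter.

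Fas, the death receptor for Fas ligand, had signals of 8.92 and 8.99 in GCN5+/- A1 and A2, 8.85 and 8.65 in GCN5-/- A1 and A2, 6.83 in GCN5+/- B and 7.45 in GCN5-/- B. All line A arrays were higher (-1.71 ± 0.18, SE; limma adjusted p = 0.000408). Phlda3, a pleckstrin-homology protein that restrains the survival kinase Akt, read 11.69 and 11.52 in GCN5+/- A1 and A2, 11.33 and 11.16 in GCN5-/- A1 and A2, and 10.73 and 10.22 in GCN5+/- B and GCN5-/- B. It fell in line B by 0.95 ± 0.10 (limma adjusted p = 0.000334), with differences of -0.88 within GCN5+/- and -1.03 within GCN5-/- arrays. Aen, an apoptosis-enhancing nuclease, read 11.04, 10.71, 11.18 and 11.16 in line A against 10.43 and 10.39 in line B at its brightest probe set (-0.62 ± 0.12; limma adjusted p = 0.00837). A second Aen probe set, 1450506_a_at, was also called (-0.60 ± 0.13) and another, 1437373_at, was not (-0.35 ± 0.12; limma adjusted p = 0.0629). Without GCN5-/- B neither call of Aen held (adjusted p = 0.0881 and 0.160), and 1450506_a_at was at -0.38.

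The other death receptors did not share this pattern. Tnfrsf10b, the mouse TRAIL receptor, was at 7.07 and 7.03 in GCN5+/- A1 and A2, 7.35 and 7.26 in GCN5-/- A1 and A2, and 7.65 and 7.45 in line B, higher in both line B arrays but not called (0.37 ± 0.12, SE; limma adjusted p = 0.0624). Both Tnfrsf10b probe sets were called without GCN5-/- B, which leaves GCN5+/- B as the single line B array (adjusted p = 0.0350 and 0.0442), and 1421296_at also without GCN5-/- A1 (adjusted p = 0.0252). Eda2r, a receptor for ectodysplasin A2, ran from 7.03 in GCN5+/- B to 8.32 in GCN5-/- B, so the line B arrays were its lowest and highest (-0.19 ± 0.23; limma adjusted p = 0.616). Of the 7 genes in this role, 5 fell, 0 rose and 2 were not called, where 11.5% of all probe sets fell and 11.6% rose. Genes were put in roles with earlier results of these data known, so this count describes the group and is not a test.

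Genes of the mitochondrial death route were not called at their brightest probe sets. Bbc3 (Puma), a BH3-only activator of Bax, differed by -0.06 ± 0.12 (SE), and Pmaip1 (Noxa), of the same class, by 0.37 ± 0.13 (limma adjusted p = 0.762 and 0.0831). Pmaip1 was higher in both line B arrays (9.59 and 9.87) than in the line A arrays (9.17 to 9.52), and was called without GCN5+/- B (adjusted p = 0.0408). Apaf1, the scaffold of the caspase-activating apoptosome, had differences of 0.37 ± 0.14 at 1452870_at (limma adjusted p = 0.0861) and 0.38 ± 0.09 at 1450223_at, which was called (limma adjusted p = 0.0227). Leaving out any 1 of 5 arrays, all but GCN5+/- A2, ended that call (adjusted p up to 0.153). Ei24, a membrane protein of the endoplasmic reticulum, lay within 11.80 to 11.90 in all 6 arrays.

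Growth arrest genes went both ways. Plk2, a polo-like kinase of the stress response, rose in line B: it read 12.34 and 12.45 in GCN5+/- A1 and A2, 12.72 and 13.01 in GCN5-/- A1 and A2, and 13.22 and 13.38 in line B (0.67 ± 0.10, SE; limma adjusted p = 0.00247; 0.0572 with no genotype term). Ckap2, a spindle-associated protein, read 11.27, 11.50, 11.49 and 11.50 in line A and 11.69 and 11.85 in line B (0.33 ± 0.08; limma adjusted p = 0.0264), without overlap. Btg2, an antiproliferative cofactor of RNA decay, was lower in line B at both probe sets (-0.48 ± 0.12 and -0.42 ± 0.12; limma adjusted p = 0.0268 and 0.0342), but arrays of the lines overlapped. The calls of Ckap2 and Btg2 were lost on leaving out either line B array, and also GCN5-/- A1 for both, GCN5+/- A1 for Ckap2 and Btg2 1416250_at, GCN5-/- A2 for Ckap2 and GCN5+/- A2 for Btg2 1448272_at (adjusted p up to 0.199). Gadd45a, a growth arrest and repair factor, Plk3, a related kinase, and Zmat3, an RNA-binding zinc finger protein, were not called, with differences of 0.27 ± 0.12, 0.15 ± 0.10 and -0.21 ± 0.11.

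The repair genes Ddb2 (recognition of ultraviolet damage), Polk (a translesion polymerase) and Rrm2b (a ribonucleotide reductase subunit) lay 0.18 to 0.27 higher in line B at their brightest probe sets, and 0 of the 3 were called. Among metabolic genes, Ddit4, an inhibitor of the growth kinase complex mTORC1, rose. It read 10.53 and 10.70 in GCN5+/- A1 and A2, 10.47 and 10.33 in GCN5-/- A1 and A2, 12.01 in GCN5+/- B and 11.16 in GCN5-/- B (1.07 ± 0.14, SE; limma adjusted p = 0.00144). Both line B arrays were above line A, by 1.39 in GCN5+/- and 0.76 in GCN5-/-. Ephx1, microsomal epoxide hydrolase, read 11.62, 11.30, 11.71 and 11.55 in line A against 10.45 and 11.09 in line B (-0.78 ± 0.13; limma adjusted p = 0.00462; 0.0562 without GCN5+/- B).

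Dcxr, a dicarbonyl reductase, read 9.91, 9.59, 9.81 and 9.47 in line A against 9.10 and 9.12 in line B (-0.58 ± 0.14, SE; limma adjusted p = 0.0183), a call lost without GCN5+/- B (adjusted p = 0.160) or GCN5-/- B (adjusted p = 0.0702). The sestrins, which sense leucine and oxidative stress and restrain mTORC1, pointed apart: Sesn1 was at 0.36 ± 0.12 and not called (limma adjusted p = 0.0651; 0.0475 with quantile normalization), and Sesn2 fell at 1425139_at (-0.45 ± 0.12; limma adjusted p = 0.0304) and was not called at its brighter 1451599_at (-0.40 ± 0.15; limma adjusted p = 0.100). The Sesn2 call was kept on leaving out GCN5+/- A1 and lost with each of the other 5 arrays (adjusted p up to 0.181). Tigar, a fructose bisphosphatase that slows glycolysis, had a difference of -0.00 ± 0.11. Without GCN5+/- B, 11 of the 44 probe sets were called between the lines, and 12 without GCN5-/- B. Perp, Trp53inp1, Fas, Phlda3 and Ddit4, with Ccng1 at 1450016_at and 1450017_at, kept their call in all 14 alternatives run for the line difference.

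**Figure D2:**
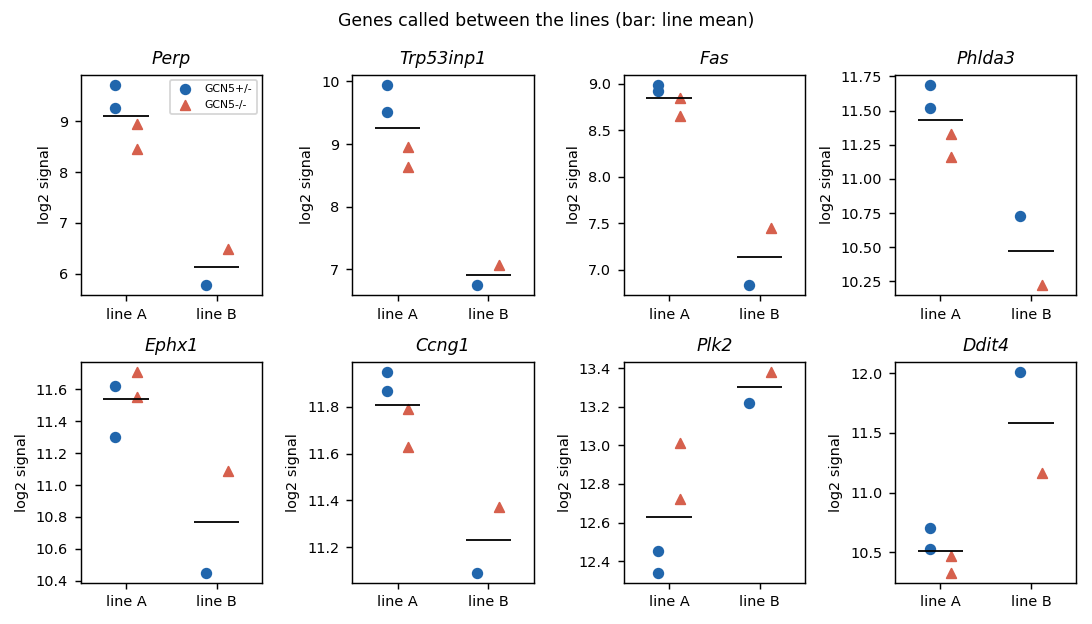
Log2 signal of 8 genes called between the lines in each array, by line (x axis) and genotype (circles GCN5+/-, triangles GCN5-/-); the bar is the mean of the line (4 line A and 2 line B arrays), and each panel has its own y axis, which does not start at 0. Perp, Trp53inp1, Fas, Phlda3, Ephx1 and Ccng1 are lower in both line B arrays, and Plk2 and Ddit4 higher.

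Genotype differences within the group were smaller, and went both ways. Tigar and Rrm2b rose in GCN5-/- cells, Mdm2 rose at 1 of its probe sets, and Btg2 and Phlda3 fell. Of 44 probe sets, 7 passed the threshold, 5 upward and 2 downward, for 5 of the 28 genes, while 8.51% of all 27022 probe sets were called (4.2% higher, 4.31% lower). The median log2 difference (GCN5-/- minus GCN5+/- throughout) was 0.04 for the 44 and -0.007 for all tested. Leaving out 1 array lowered the count. It was 1 without GCN5+/- A1, 3 without GCN5+/- A2 and 3 without GCN5+/- B. It was 2 without GCN5-/- A1, 0 without GCN5-/- A2 and 4 without GCN5-/- B. In the same order 2.6%, 4.1%, 8.48%, 4.3%, 2.39% and 8.54% of all probe sets were called. The same shares stand beside the genotype counts of the further lists below. Of the 7, those still called were 0, 3, 1, 2, 0 and 1 in the same order, the others being newly called (Eda2r without GCN5+/- A1, and Trp53inp1 and Plk2 without either line B array, with Sesn1 without GCN5-/- B). With no line term, or with line as a random block, 0 of 44 were called, against 0.255% and 1.97% of all probe sets. In the main limma fit 20 of 44 had an unadjusted p under 0.05. The share of all probe sets under that level is not given here, so this count describes no trait of the group. The main fit counts A1 and A2, RNAs of 1 line, as separate arrays. The p-value between genotypes therefore rests on 2 lines and measures in part the spread between RNAs of line A. With line A duplicates averaged, 1 of 44 was called (Rrm2b at 1437476_at), against 2.62% of all probe sets.

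Tigar read 8.08, 8.24 and 8.24 in the GCN5+/- arrays (A1, A2, B) and 8.63, 8.83 and 8.64 in the GCN5-/- arrays (same order) at 1439859_at. Every GCN5-/- array was above every GCN5+/- array (0.51 ± 0.11, SE; limma adjusted p = 0.0266), and the A1, A2 and B pairs differed by 0.55, 0.59 and 0.40. A second Tigar probe set, 1447934_at, was called as well (0.39 ± 0.09), and 1435929_at was not (0.26 ± 0.09, limma adjusted p = 0.130). At 1447934_at the GCN5+/- mean was 6.79, just under the filter level of 6.80, and the GCN5-/- mean was 7.17. That call was lost with no level filter (limma adjusted p = 0.0615), so it adds little to the first probe set. Rrm2b, the p53-induced subunit that supplies deoxynucleotides for repair, read 9.46, 9.54 and 9.62 in the GCN5+/- arrays (A1, A2, B) and 9.85, 9.92 and 10.15 in the GCN5-/- arrays (same order), at 1433773_at, again without overlap (0.44 ± 0.09; limma adjusted p = 0.0259). At 1437476_at Rrm2b rose by 0.64 ± 0.15 (limma adjusted p = 0.0353). The calls of Rrm2b at 1433773_at and of Tigar at 1447934_at were lost on leaving out any single array (adjusted p up to 0.113 and 0.158). Tigar at 1439859_at kept its call without either line B array and lost it without any line A array (adjusted p up to 0.121), and Rrm2b at 1437476_at kept its call without GCN5+/- A2 alone.

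Mdm2 was higher in every GCN5-/- array at both of its tested probe sets. At 1427718_a_at it read 10.73, 10.77 and 10.61 in the GCN5+/- arrays (A1, A2, B) and 11.06, 11.08 and 11.08 in the GCN5-/- arrays (same order) (0.37 ± 0.08, SE; limma adjusted p = 0.0258). The brighter 1423605_a_at differed by 0.26 ± 0.07 and lay just past the threshold (limma adjusted p = 0.0526; 0.0472 with quantile normalization). The pairs differed by 0.34, 0.31 and 0.47 at the first and by 0.25, 0.19 and 0.36 at the second. The call of 1427718_a_at was lost on leaving out any single array (adjusted p up to 0.103).

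Btg2 fell in all 3 pairs, by 0.59, 0.60 and 0.55. It read 10.56, 10.28 and 9.92 in the GCN5+/- arrays (A1, A2, B) and 9.97, 9.68 and 9.37 in the GCN5-/- arrays (same order) (-0.58 ± 0.12, SE; limma adjusted p = 0.0242). The genotypes overlapped across lines, since line B was lower in both. Its other probe set, 1448272_at, differed by -0.37 ± 0.11 and was not called (limma adjusted p = 0.0754). Phlda3, with the array values given above, had pair differences of -0.36 (A1), -0.35 (A2) and -0.51 (B) (-0.41 ± 0.09; limma adjusted p = 0.0318; 0.0526 without a variance trend). The Btg2 and Phlda3 calls both held without GCN5+/- A2 and without GCN5-/- A1, and neither held without any 1 of the other 4 arrays (adjusted p up to 0.106 for Btg2 and 0.138 for Phlda3).

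**Figure D3:**
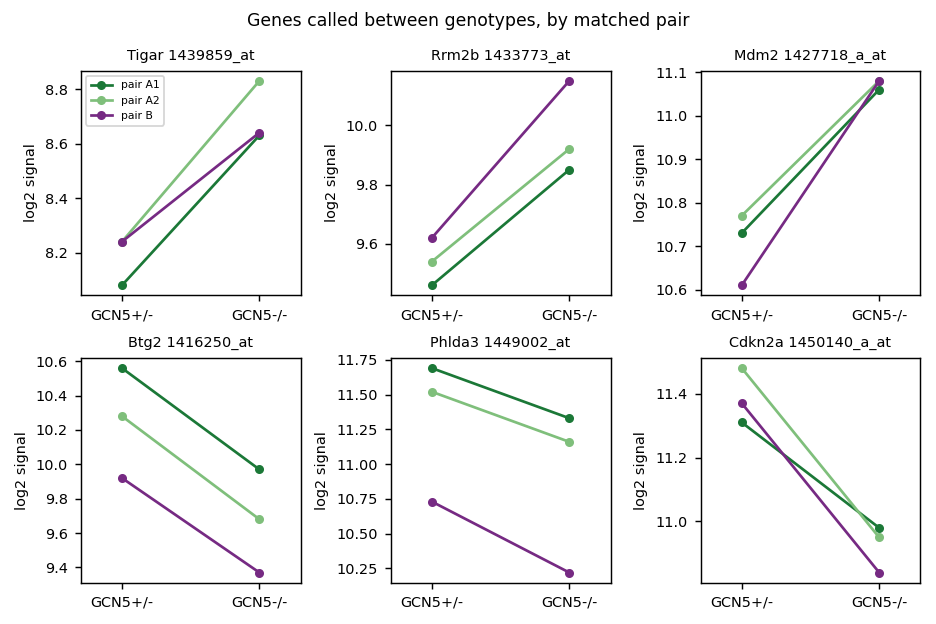
Log2 signal in GCN5+/- and GCN5-/- arrays (x axis) for 5 genes of the group called between genotypes and for Cdkn2a; each line joins a matched pair (A1, A2 or B), and each panel has its own y axis, which does not start at 0. All 3 pairs rise for Tigar, Rrm2b and Mdm2 (at 1427718_a_at) and fall for Btg2, Phlda3 and Cdkn2a.

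The remaining 23 genes were not called between genotypes. Plk2 was 0.36 ± 0.09 higher (SE; limma adjusted p = 0.0531), and passed the threshold with the replicate block (adjusted p = 0.0406). Apaf1 at 1450223_at had pair differences of -0.33 (A1), -0.34 (A2) and -0.33 (B), and overall -0.33 ± 0.09 (limma adjusted p = 0.0583; 0.0462 without a variance trend). Bbc3 differed by -0.35 ± 0.11 and was lower in all 3 pairs (limma adjusted p = 0.102), and Ddit4 by -0.43 ± 0.14 (limma adjusted p = 0.0957). Eda2r had the largest difference of the group, 0.67 ± 0.22, but spread widely: it read 8.0, 7.38 and 7.03 in the GCN5+/- arrays (A1, A2, B) and 7.97, 8.12 and 8.32 in the GCN5-/- arrays (same order) (limma adjusted p = 0.106). Ccng1, Ei24, Pmaip1, Fas, Gadd45a and Dcxr differed by 0.07 or less in size at their brightest probe sets. For Ccng1, Pmaip1 and Fas this small value joins opposite signs in the lines. Pairs A1, A2 and B differed by -0.16, -0.24 and 0.28 for Ccng1. The same pairs differed by -0.09, -0.36 and 0.27 for Pmaip1, and by -0.07, -0.34 and 0.61 for Fas.

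**Figure D4:**
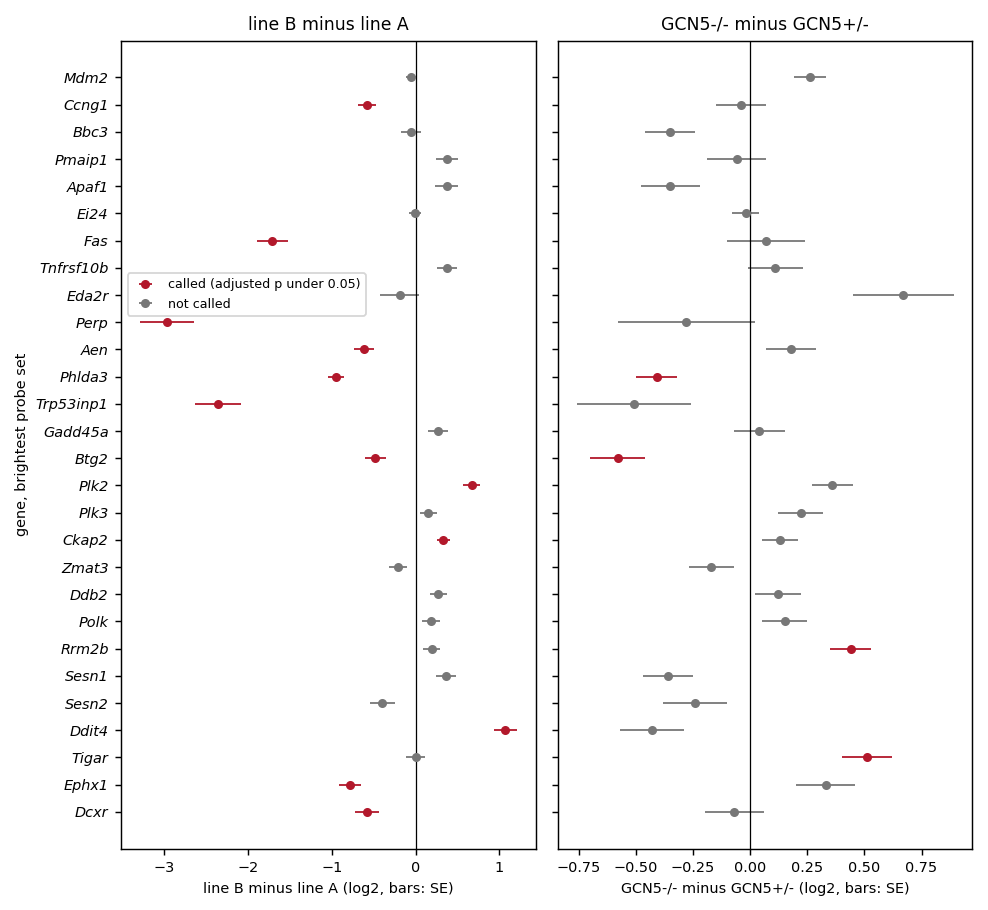
Log2 difference with its SE for 28 genes (brightest probe set) between lines (left) and between genotypes (right); red marks a limma adjusted p under 0.05. The 2 panels have different x axes: line differences reach -2.97 (Perp), and genotype differences lie between -0.58 (Btg2) and 0.67 (Eda2r).

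Whether the genotype difference itself differed between the lines was tested by the genotype by line interaction. None of the 44 probe sets was called (0 by limma, and 0 with robust or untrended variances). Of all probe sets 0.0481% were (0.0222% higher, 0.0259% lower). Of the 44, 8 had an unadjusted p under 0.05, a count given without the share of all probe sets. The fit has 2 residual degrees of freedom, both from line A duplicates. Perp differed by -0.77 and -0.79 in pairs A1 and A2 and by 0.72 in pair B (interaction 1.5, adjusted p = 0.300). Trp53inp1 differed by -0.99, -0.87 and 0.33 (interaction 1.26, adjusted p = 0.318), and within line A alone it fell by 0.93 ± 0.18 (limma adjusted p = 0.0229). Fas differed by -0.07, -0.34 and 0.61 (interaction 0.82, adjusted p = 0.381). For these 3 genes line B started lower and the gap between lines was smaller in GCN5-/- cells. Ddit4, higher in line B, differed by -0.06, -0.37 and -0.85 (interaction -0.64, adjusted p = 0.383), also with a smaller gap.

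**Figure D5:**
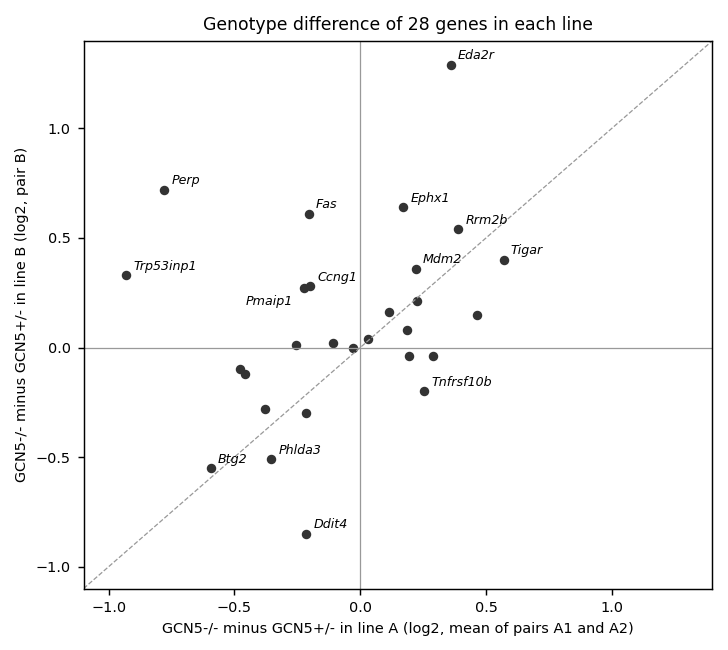
GCN5-/- minus GCN5+/- log2 difference of 28 genes (points, brightest probe set) in line A (x axis, mean of pairs A1 and A2) and in line B (y axis, pair B, a single pair); the dashed line marks equal differences. Tigar, Rrm2b, Mdm2, Btg2 and Phlda3 lie on the same side of 0 in both lines, and Perp, Trp53inp1 and Fas lie below 0 in line A and above 0 in line B.

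Further genes of the pathway were read from lists. Of 35 other p53 target genes tested (of 44 listed), 13 fell and 1 rose between the lines (of all probe sets, 11.5% fell and 11.6% rose), with a median of -0.18. Cdkn1a, which encodes the cyclin-dependent kinase inhibitor p21 and is the best known arrest gene of p53, read 10.68 and 10.16 in GCN5+/- A1 and A2, 10.75 and 10.26 in GCN5-/- A1 and A2, 9.47 in GCN5+/- B and 9.31 in GCN5-/- B at 1424638_at. Both line B arrays were lower (-1.07 ± 0.18, SE; limma adjusted p = 0.00433), and a second probe set fell by 1.24 ± 0.30 (limma adjusted p = 0.0199; 0.104 without GCN5+/- B and 0.127 without GCN5-/- B). Cdkn1a did not differ by genotype beyond its error (0.00 ± 0.17). By the brightest probe set, the largest falls in line B were those of Igfbp3, an IGF-binding protein (-4.01 ± 0.58; -2.58 without GCN5+/- B), Tap1, a peptide transporter that is also interferon-induced (-1.64 ± 0.25; -1.01 without GCN5-/- B), and Dram1, a lysosomal membrane protein of autophagy (-1.20 ± 0.11). Thbs1, the matrix protein thrombospondin, fell by 1.09 ± 0.12, and by 1.5 ± 0.21 at a second probe set, and kept both calls on leaving out any single array. The gene that rose was Lif, a cytokine (0.53 ± 0.12), whose call was lost without either line B array (adjusted p = 0.0626 and 0.148). On leaving out 1 array at a time, 7 (without GCN5+/- B) to 12 of the 35 were called, and 9 without GCN5-/- B.

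Between genotypes, 5 of these 35 rose and 1 fell (median 0.03), where 4.2% of all probe sets rose and 4.31% fell. Leaving out 1 array gave 3 (without GCN5+/- A1 or GCN5-/- A1) to 8 calls, of which 0 to 3 were lower, and no line term gave 0. Tap1 (1.75 ± 0.23, SE), Lif (0.84 ± 0.11) and Ninj1, a membrane protein of cell rupture (0.47 ± 0.06), rose most and kept their call on leaving out any single array at their brightest probe sets. The other called Ninj1 probe sets, 1441281_s_at and 1448417_at, each kept it in 3 of 6 such fits (adjusted p up to 0.0947 and 0.0937). Ak1 and Gpx1 rose by 0.32 ± 0.08 and 0.24 ± 0.04. Pltp, a lipid transfer protein, fell by 0.48 ± 0.09, a call lost at this probe set without GCN5+/- A1, GCN5+/- A2, GCN5-/- A1 or GCN5-/- A2 (adjusted p up to 0.0904). The call of Ak1 was lost without any 1 array (adjusted p up to 0.151), and that of Gpx1 without GCN5+/- A1 (adjusted p = 0.0720) or GCN5-/- A1 (adjusted p = 0.0545).

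Among 25 tested regulators of p53 (of 27 listed), 4 rose and 1 fell in GCN5-/- cells, where 8.51% of all probe sets were called. On leaving out 1 array 0 (without GCN5-/- A2) to 5 were called, with 1 each without GCN5+/- A1, GCN5+/- A2 or GCN5-/- A1, and without either line B array 2 were higher and 3 lower. Cdkn2a, whose products include the Mdm2 inhibitor Arf and the kinase inhibitor p16, was read by 1 probe set, which does not tell these products apart here. It was at 11.31, 11.48 and 11.37 in the GCN5+/- arrays (A1, A2, B) and 10.98, 10.95 and 10.84 in the GCN5-/- arrays (same order) (-0.47 ± 0.08, SE; limma adjusted p = 0.0132), lower in every GCN5-/- array. Its call was lost without GCN5+/- A2 (adjusted p = 0.0561) or GCN5-/- A2 (adjusted p = 0.0639), and its line difference was -0.08 ± 0.08. Pml, a nuclear body scaffold (0.52 ± 0.10), Daxx, its partner (0.42 ± 0.09), the checkpoint kinase Chek1 (0.37 ± 0.09) and the ubiquitin ligase Rchy1 (0.33 ± 0.08) rose. Without GCN5+/- A1 or GCN5-/- A2 none of these 4 brightest probe sets kept its call, and without GCN5-/- A1 none did either; that of Chek1 held in 0 of the 6 such fits. Mdm4, a relative of Mdm2 that inhibits p53, was not called between genotypes at its brightest probe set (-0.04 ± 0.11) or at its 3 others that were tested, though 1419558_at was lower in line B (-0.43 ± 0.11; limma adjusted p = 0.0229). Between lines 3 of the 25 rose and 0 fell (12%, against 23.1% of all probe sets called), and 1 was called without GCN5+/- B. Ppp1r13b, which steers p53 towards death genes, rose in line B by 0.92 ± 0.13, Chek1 by 0.49 ± 0.10 and Pml by 0.44 ± 0.11, the calls of Chek1 and Pml being lost without GCN5+/- B (adjusted p = 0.0945 and 0.232).

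Cell cycle genes that p53 lowers through p21 and the DREAM repressor complex were tested for 19 of 20 listed. Between the lines 4 rose and 0 fell, 21.1% of the list against 23.1% of all probe sets, with a median of 0.05. The direction of the calls rested on GCN5+/- B: without it 0 were called higher and 2 lower. The 4 were Aurkb (0.60 ± 0.10, SE), Kif23 (0.41 ± 0.08), Ccnb2 (0.37 ± 0.09) and Bub1b (0.34 ± 0.09), genes of chromosome segregation and mitotic entry. Without GCN5+/- B none of the 4 kept its call (adjusted p = 0.0746, 0.0535, 0.131 and 0.204); Ccnb2 also lost it without GCN5-/- A2 (0.0534) or GCN5-/- B (0.0723), and Bub1b without GCN5+/- A1 (0.0581), GCN5-/- A1 (0.0594) or GCN5-/- B (0.0583). Between genotypes 0 of the 19 were called by limma, and 4 had an unadjusted p under 0.05 (share of all probe sets not given here). In the interaction 0 of the 19 were called by limma, with values from -0.45 to -0.0. The sign was shared: the genotype difference was lower in line B than in line A for all 19. The median interaction was -0.13, against 0.002 for all tested probe sets. The line B side of this rests on a single pair.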

How the data were processed

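The authors deposited 1 log2 signal for each probe set and array; that the scale is log2 was read from the range, 3.13 to 15.2. The submitters' processing notes name MAS5 on 6 samples and Partek on 1, with no role for either. Normalization and background correction: not given in the sources used here. Medians of the arrays nearly coincide, so a change shared by most genes would have been removed. Of 45101 probe sets, 64 controls were left out. Symbols came from the platform annotation: 34945 probe sets had 1 symbol, 932 several and 9160 none; those with several were left unnamed. Genes were represented by their brightest probe set.

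Tests used limma 3.58.1 in R 4.3.3 (lmFit, then eBayes with a variance trend) on 27022 probe sets at or above the 40th percentile of mean signal, with genotype and cell line as terms, Benjamini-Hochberg adjustment over all of them, and a threshold of 0.05. The interaction came from a fit with the product term. The script was tested on simulated data. No 2 arrays were copies (37 to 62 identical values per pair).

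Replicate names pair arrays by cell line. Deviations from group means correlated at 0.714 (A1), 0.727 (A2) and 0.846 (B), against 0.509 and 0.443 when A1 was set beside A2. The labels do not say that equal numbers mark a shared RNA preparation. Line was therefore a term of the fit, and a block of A1, A2 and B an alternative.

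Members and gene lists were chosen with earlier results of these data known. The text gives values in every array for Mdm2, each member called between genotypes, the members with the largest called line differences, Cdkn1a and Cdkn2a. Of each further list it names up to 3 called genes per direction, and the rest where 5 or fewer were called. Thbs1 was named beyond this rule. Other members with array values were chosen after their values were seen. Alternatives were the level filter, quantile normalization, the variance prior, the treatment of line, averaged duplicates, subsets of arrays and each array left out. Alternatives for the further lists were added after seeing the data. The number of arrays limits the precision.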

Additional observations from a re-analysis of the deposited data

How the results depend on the processing

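Direction held in every alternative for each of the 25 calls of single probe sets (7 between genotypes, 18 between lines), but sizes and calls changed: over the alternatives the line difference of Perp ran from -3.72 to -2.22, of Ccng1 1420827_a_at from -0.82 to -0.34, of Aen 1450506_a_at from -0.82 to -0.38 and of Ddit4 from 0.76 to 1.39. The number of genotype calls in the group, 7, was 0 with no line term and 0 with line as a random block. It was 1 with averaged line A duplicates and 3 with line A arrays alone, of which 1 was among the 7. Leaving out 1 array gave 0 to 4. Of all probe sets these settings called 0.255%, 1.97%, 2.62%, 8.36% and 2.39% to 8.54%, against 8.51% in the main fit. With the replicate block there were 8, the 7 calls and Plk2, and it changed no other call in the group. The number of line calls, 18, was 11 to 18 on leaving out 1 array and stayed within 1.5 times under the other settings, the lowest being 12 with no genotype term. The interaction stayed at 0 in each of its 4 alternatives. Leaving out a line B array makes the genotype difference rest on line A alone, and the line difference rest on 1 line B array that is assumed to vary like the others. Single calls between genotypes held in 35 of 63 settings that changed the method or took line A arrays only. They held in 7 of 42 settings that left out 1 array. Those between lines held in 122 of 144 settings that changed the method or took the arrays of 1 genotype only. With 1 array left out they held in 79 of 108. The cause of the lost calls was not tested. Signals near the level filter, as for Perp and Trp53inp1 in line B, limit how far fold changes can be read.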
